A study of Mus musculus with 63 samples.

Results

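The comparison described here asked how the transcriptional response of mouse small intestinal organoids to removal of CDK8 changed between 3 and 5 days. Organoids were VillinCreERT2; Cdk8 fl/fl; Cdk19 ko/ko on a C57BL/6 background, so that every library, controls included, lacked CDK19 and carried the floxed Cdk8 alleles and the Cre. They were given 100 nM 4-OHT, the active tamoxifen metabolite that switches on the Cre and recombines Cdk8, or 0.001% EtOH as vehicle for 24 h and were collected at day 3, 5, 7 or 10. It rests on 12 of the 63 samples of the series, namely 3 EtOH (DKO+E) and 3 4-OHT (DKO+T) libraries at day 3 and the same at day 5. The tested quantity was the interaction, the log2 fold change of 4-OHT over EtOH at day 5 minus that at day 3, so that a negative value marks a gene whose response moved downwards and a positive value one whose response moved upwards. VillinCreERT2 acts in the intestinal epithelium, all columns of the time course carry one line number, and this set has no line with the Cre but without floxed Cdk8. Effects of 4-OHT or of active Cre therefore cannot be told apart from loss of CDK8.

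CDK8 and CDK19 are alternative kinases of the Mediator kinase module, which they form with cyclin C, MED12 and MED13, and which binds reversibly to the Mediator complex that links transcription factors to RNA polymerase II. Small intestinal organoids are epithelial cultures in which Lgr5+ stem cells and Paneth cells occupy crypt-like buds, transit-amplifying progenitors divide, and absorptive enterocytes and secretory goblet, tuft and enteroendocrine cells differentiate. Wnt ligands from Paneth cells sustain the stem cells, and the culture medium here supplied R-spondin, Noggin and EGF.

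The 12 libraries held 18369427 to 20884794 gene counts each. All 12 epithelial markers examined (among them Vil1, Epcam, Cdh17 and Hnf4a) were abundant. Their summed level was 11955 to 12838 CPM (counts scaled to the TMM-adjusted size of each library) in EtOH and 10484 to 10872 CPM in 4-OHT organoids at day 3. At day 5 it was 11874.5 to 12594 and 11639.5 to 12473.5 CPM, so that the day 3 4-OHT libraries were the lowest. Of 12 fibroblast and smooth muscle markers, Col3a1, Dcn and Lum were at 0 in all 12 libraries, and the summed level was 11.3 to 13.6 CPM in EtOH and 2.88 to 4.97 CPM in 4-OHT organoids at day 3, and 6.83 to 8.14 and 5.44 to 7.90 CPM at day 5. Pdgfrb, with 41 to 234 counts, supplied most of it. Of the 4 tested genes of this list, Pdgfrb was called, lower at day 3 (-2.07 ± 0.18, adjusted p = 3.7e-10) with an upward interaction of 1.91 ± 0.26, adjusted p = 1.4e-06, and none of the 2 immune and 2 endothelial genes tested was called in the interaction. The endothelial gene Tek was higher at day 3 (1.45 ± 0.51, adjusted p = 0.027). Immune markers summed to at most 6.12 CPM and endothelial markers to at most 2.0 CPM in any of the 12 libraries. The part of such cells in the results was not tested. Cdk8 (chr5:146231230-146302874, plus strand, GRCm38) was counted at 38.6, 39.9 and 39.3 CPM in EtOH and 37.1, 34.2 and 39.3 CPM in 4-OHT organoids at day 3. At day 5 it was at 38.5, 46.1 and 46.5 CPM and 44.6, 44.1 and 46.3 CPM. The difference between the treatments was not called on either day (log2 fold changes of -0.092 and 0.042), and Cdk19 was likewise counted at day 3, at 47, 46.4 and 44 CPM in EtOH and 60, 56.9 and 58.3 CPM in 4-OHT organoids, so gene-level counts do not check either deletion. None of the 6 tested kinase module genes passed the interaction test.

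The response to 4-OHT at day 5 was largely a different one from that at day 3. Of 15447 genes tested, 3120 passed the interaction test, which is 20.2% of the genes (called here: edgeR's quasi-likelihood test with an adjusted p, after Benjamini and Hochberg, of less than 0.05, and a change of more than 1.5-fold), with 1728 (11.2%) moving upwards and 1392 (9.01%) downwards. At day 3, 1910 genes (12.4%) differed between 4-OHT and EtOH, 991 higher (6.42%) and 919 lower (5.95%). At day 5 there were 2040 (13.2%), 1326 higher (8.58%) and 714 lower (4.62%). The median gene lay at -0.022 on the log2 scale at day 3, at 0.0012 at day 5 and at 0.021 in the interaction. Across the 15447 genes the fitted log2 fold changes of both days, which share no library, had a Pearson r of 0.13, and 49.4% of genes had the same sign.

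By the fitted values, the sign of the response differed between the days in 2555 of the 3120 genes, but few of these passed the test on both days. Choosing genes for a large difference between the days itself favours opposite signs. Of 497 genes called on both days, 322 kept their direction and 175 (1.13% of all genes) reversed it, 70 from higher to lower and 105 from lower to higher. All 175 passed the interaction test, which is no separate support, as opposite calls make the interaction large by construction. Of the 3120 genes called in the interaction, 907 were called at day 3 alone, 990 at day 5 alone, 241 on both days and 982 on neither. Most genes of the day 3 response were not called at day 5. Of the 991 genes higher at day 3, 702 were not called at day 5, 219 were still higher and 70 were lower, and of the 919 lower genes 711 were not called, 103 were still lower and 105 were higher. The term reversal is used here for these 175 genes. The plot of both responses shows the reversing genes as small groups in the upper left and lower right quadrants.

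**Figure D1:**
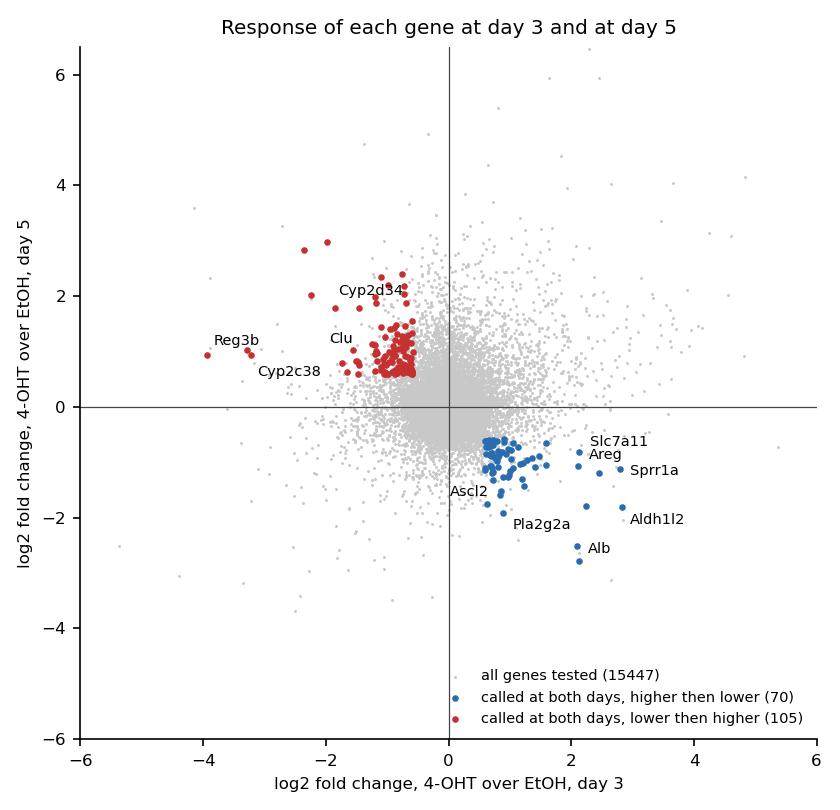
Each point is a gene, with the fitted log2 fold change of 4-OHT over EtOH at day 3 on the x axis and at day 5 on the y axis (3 against 3 libraries on each day; grey, all 15447 genes tested, of which 3 lie outside the axes). The 70 genes called higher and then lower are in blue and the 105 called lower and then higher in red, and the cloud as a whole shows little slope, with r = 0.13 across genes.

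The downward moves came mostly from the 4-OHT organoids, the upward ones from both arms. The interaction equals the change from day 3 to day 5 in 4-OHT organoids minus that in EtOH organoids. Of the 1392 genes that moved downwards, 880 were called in the 4-OHT change alone, 90 in the EtOH change alone and 45 in both. Of the 1728 that moved upwards, 758 were called in 4-OHT alone, 523 in EtOH alone and 83 in both. Among all genes, 3422 (22.2%) changed from day 3 to day 5 in 4-OHT organoids and 1848 (12%) in EtOH organoids. In 4-OHT organoids 1526 (9.88%) rose and 1896 (12.3%) fell, and in EtOH organoids 436 (2.82%) rose and 1412 (9.14%) fell. Beside these values, the share of counts from mitochondrially encoded genes was 2.51% to 2.80% in the day 5 EtOH libraries, against 3.92% to 5.57% in the other 9, and long non-coding RNAs with TEC transcripts, a class of unverified loci, were also lowest there, at 0.614% to 0.677% against 0.750% to 0.865%. In the 12 libraries of days 7 and 10 these shares were 1.5% to 3.70% and 0.617% to 0.741%. Their part in the upward moves was not tested. Among the 12235 protein-coding genes of the nucleus, 1288 moved upwards and 1265 downwards.

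**Figure D2:**
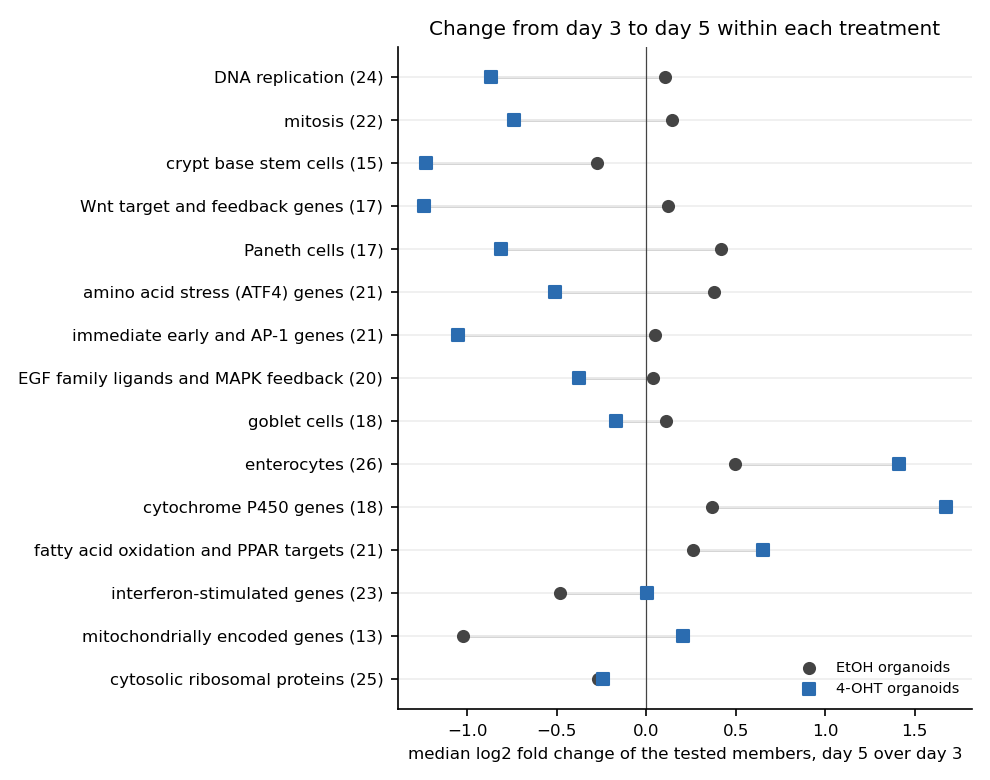
For 15 gene groups (tested members in brackets), the median log2 fold change of day 5 over day 3 in EtOH organoids (dark circles) and in 4-OHT organoids (blue squares). The gap between both marks shows the interaction only roughly, as a difference of medians is not the median of the differences. Crypt and proliferation genes fell and enterocyte and cytochrome P450 genes rose mainly through the blue marks, while the mitochondrial genes moved through the dark one.

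Wnt target and stem cell genes moved downwards between the days. Of 17 tested Wnt target and feedback genes, 15 moved downwards and none upwards. At day 3, 10 were higher and none lower (median 0.68), and at day 5, 8 were lower and none higher (median -0.53), with 5 (Ascl2, Axin2, Nkd1, Tcf7 and Wnt3) called on both days with opposite signs. Of 15 crypt base stem cell genes, 11 moved downwards, with medians of 0.40 at day 3 and -0.44 at day 5. Axin2, Rnf43, Znrf3, Lgr5 and Ascl2 stand in both lists. In bulk RNA, fewer cells of a type and less RNA per cell cannot be told apart, here and below.

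Axin2, a Wnt-induced feedback inhibitor (chr11:108920349-108950783, plus strand), was at 172, 167 and 171 CPM in the day 3 EtOH libraries and at 286, 246 and 248 CPM in the 4-OHT libraries. At day 5 it was at 164, 155 and 188 CPM in EtOH and 99.9, 105 and 125 CPM in 4-OHT organoids. The treatments did not overlap on either day, and the order turned over. Its log2 fold change went from 0.61 ± 0.11, adjusted p = 1.6e-04 at day 3 to -0.62 ± 0.11, adjusted p = 2.0e-04 at day 5, an interaction of -1.23 ± 0.16, adjusted p = 3.6e-06 (log2 ± SE, n = 3 libraries a group, edgeR, here and throughout). Ascl2, the transcription factor that specifies crypt stem cells, was at 17.3, 16.8 and 17 CPM in EtOH and 40.1, 32.1 and 28.7 CPM in 4-OHT organoids at day 3, and at 18, 14.2 and 28 CPM and 7.64, 7.72 and 10.1 CPM at day 5 (EtOH first, here and below). Replicate 3 of the day 5 EtOH organoids was the highest of its group, and the 4-OHT libraries lay below all 3. The interaction was -2.22 ± 0.38, adjusted p = 2.1e-04. Tcf7, a TCF/LEF factor that binds beta-catenin, fell from a 2.58-fold increase to a 1.89-fold decrease (interaction -2.29 ± 0.25, adjusted p = 1.6e-07).

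Wnt3, the ligand that Paneth cells make for the stem cells, followed the same course. It was at 7.62, 7.7 and 8.99 CPM in EtOH and 13.8, 13.1 and 12.1 CPM in 4-OHT organoids at day 3, and at 11, 12.7 and 13.8 CPM and 6.46, 5.46 and 5.91 CPM at day 5. Its 4-OHT libraries were thus the higher ones at day 3 and the lower ones at day 5 without overlap, and the interaction was -1.76 ± 0.18, adjusted p = 1.2e-08. Lgr5, the R-spondin receptor of crypt stem cells, was not called at day 3 (0.28 ± 0.13, adjusted p = 0.10) and was lower at day 5 (-0.66 ± 0.13, adjusted p = 5.8e-04). Its mean was 232 ± 17.5 CPM at day 3 and 159 ± 24.8 CPM at day 5 in EtOH organoids, and 281 ± 9.12 and 100.4 ± 4.86 CPM in 4-OHT organoids (± SD, n = 3). Rnf43, which removes Wnt receptors from the surface, was higher at day 3 (0.82 ± 0.07, adjusted p = 3.8e-10) and below the fold threshold at day 5 (-0.30 ± 0.07, adjusted p = 0.0019). Olfm4, a secreted stem cell marker, had an interaction of -1.35 ± 0.23, adjusted p = 1.6e-04, and Sox9, a factor of stem and Paneth cells, one of -1.04 ± 0.12, adjusted p = 1.9e-07. The other 2 genes of the Wnt list, Fzd7, a Wnt receptor, and Sfrp5, a secreted inhibitor, were not called in the interaction (-0.023 and -0.43).

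Paneth cell genes were mostly not called at day 3 and nearly all lower at day 5. Paneth cells secrete lysozyme and defensins into the crypt. Of 17 tested genes of the list, 16 moved downwards and none upwards. At day 3, 4 were higher and none lower (median 0.20), and at day 5, 14 were lower (median -1.01). Lyz1, a lysozyme, was at 2074, 2493 and 1986 CPM in EtOH and 2945, 2619 and 2376 CPM in 4-OHT organoids at day 3, where the groups overlapped. On day 5, Lyz1 was at 3752, 3720.03 and 2711 CPM in EtOH and 1845, 1619.6 and 1606 CPM in 4-OHT organoids, with no overlap. The EtOH mean rose while the 4-OHT mean fell, giving an interaction of -1.28 ± 0.16, adjusted p = 7.8e-07. The 4 genes higher at day 3 were Defa20, Mptx2, Nupr1 and Pla2g2a, a secreted phospholipase with antibacterial activity (chr4:138831857-138835186, plus strand).

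Pla2g2a was at 21.3, 22.4 and 23.9 CPM in EtOH and 47.6, 44 and 33 CPM in 4-OHT organoids at day 3, and at 37.2, 31.3 and 41.3 CPM and 8.55, 9.09 and 11.6 CPM at day 5. The treatments were apart on both days, in opposite order (interaction -2.79 ± 0.18, adjusted p = 6.3e-12). Itln1, an intelectin, was not called at day 3 (-0.14 ± 0.07, adjusted p = 0.11), and at day 5 its 4-OHT libraries were at 368, 358 and 350.4 CPM, against 886, 1019 and 931 CPM in EtOH. Interactions of -1.06 ± 0.17, adjusted p = 4.0e-05 for Ang4, -0.94 ± 0.13, adjusted p = 5.5e-06 for Mmp7, which activates defensins, and -1.35 ± 0.14, adjusted p = 8.7e-08 for Defa17 were of like size. Defensin genes are near-identical copies that can share reads, so the value of a single one is uncertain.

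The defensin promoters are shown because the list moved together and part of it carries the letters bound by TCF factors. Promoter windows, 250 bases before each RefSeq start on build GRCm38.p6, were matched by symbol for 11 of 17 Paneth genes, and 5 of their 12 windows held CTTTGAT on either strand (ATCAAAG when read on the other strand), against 3.21% of all windows. Of these 5, 4 are windows of defensin copies of like sequence (Defa20, Defa21, Defa22 and Defa30), and that of Mmp7 lies inside the gene by the GENCODE annotation, so they are not 5 separate promoters. Of the 12 matched Wnt target and feedback genes, 1 held it. In Defa22 (chr8:21162027-21162276, plus strand), whose window has the same letters as that of Defa21, both matches stand in capitals and begin 112 and 72 bases before the start:
Defa22: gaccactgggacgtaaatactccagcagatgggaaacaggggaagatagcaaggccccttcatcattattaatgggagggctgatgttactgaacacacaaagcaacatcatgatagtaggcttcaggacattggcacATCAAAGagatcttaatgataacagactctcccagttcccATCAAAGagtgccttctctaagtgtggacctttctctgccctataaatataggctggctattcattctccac
Defa22 went from 149.6 ± 23.1 and 187 ± 33.6 CPM in EtOH and 4-OHT organoids at day 3 to 175 ± 17.1 and 96.6 ± 15.4 CPM at day 5 (interaction -1.18 ± 0.26, adjusted p = 0.0018). A match of letters is not a measured binding site.

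Most genes of DNA replication and mitosis moved downwards. Of 24 replication genes, 22 moved downwards, none was called at day 3 (median 0.35) and 19 were lower at day 5 (median -0.72). Of 22 mitosis genes, 20 moved downwards, none was called at day 3 (median 0.32) and 6 were lower at day 5 (median -0.52). Mcm4, a subunit of the replicative helicase, was at 81.8, 81.2 and 76.2 CPM in EtOH and 119, 104 and 119 CPM in 4-OHT organoids at day 3. At day 5 it was at 80.4, 81.5 and 99 CPM and 53.7, 56.3 and 62.9 CPM. The 4-OHT libraries were higher at day 3, under the 1.5-fold threshold, and lower at day 5 (interaction -1.11 ± 0.14, adjusted p = 4.9e-07). Uhrf1, which maintains DNA methylation at replication forks, had an interaction of -1.38 ± 0.19, adjusted p = 9.8e-06, Cdt1, a licensing factor, of -0.85 ± 0.11, adjusted p = 8.7e-07, Aurkb, a mitotic kinase, of -1.12 ± 0.16, adjusted p = 1.2e-05 and Tpx2, a spindle factor, of -0.96 ± 0.15, adjusted p = 2.6e-05. From day 3 to day 5 no gene of either list was called in EtOH organoids (medians 0.10 and 0.14), while genes of both fell in 4-OHT organoids (medians -0.87 and -0.74, with 20 of 24 and 16 of 22 called).

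**Figure D3:**
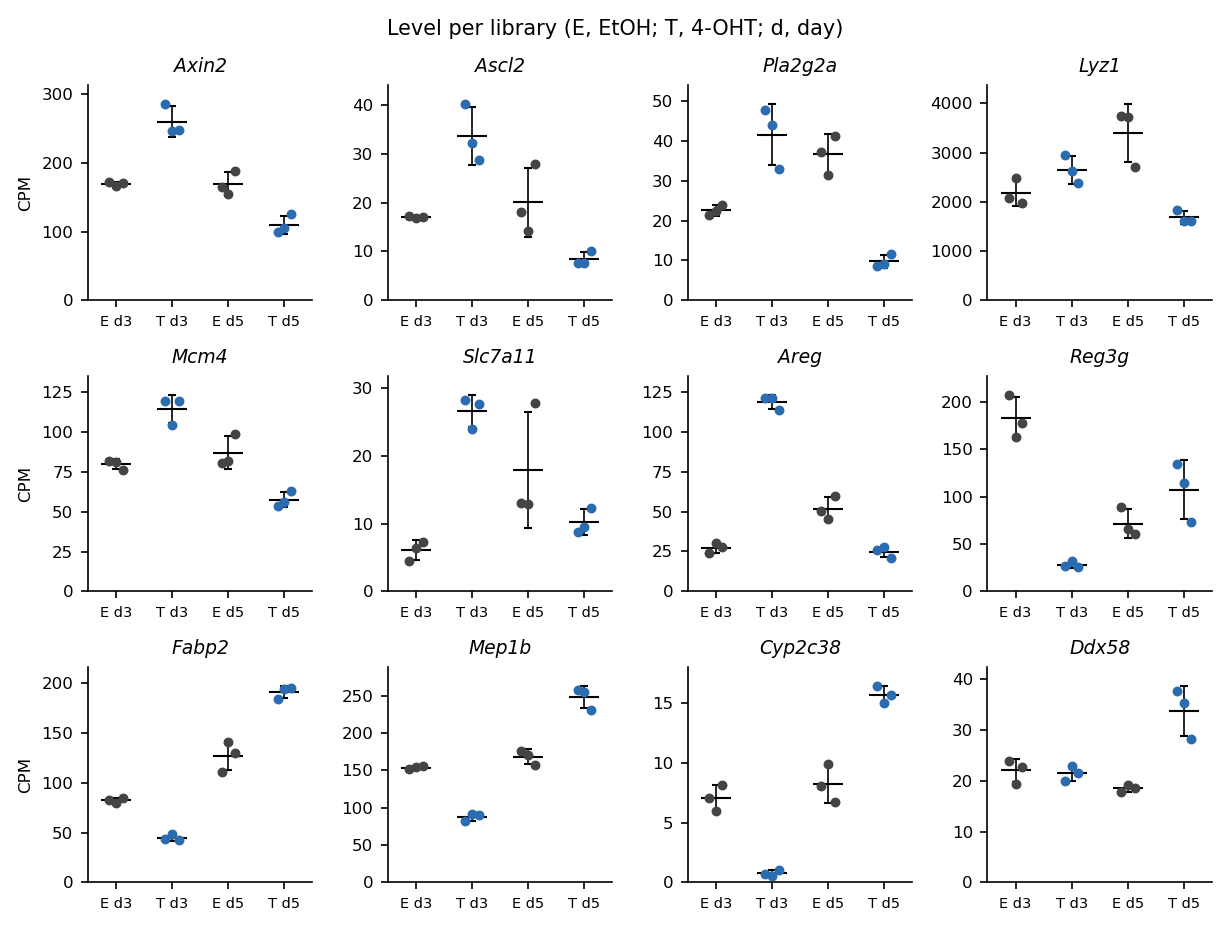
Level in CPM of 12 genes in each of the 12 libraries (dark, EtOH, E; blue, 4-OHT, T; d, day), with the mean and SD of each group of 3. In the first 7 panels (Axin2 to Areg) the 4-OHT libraries lie above EtOH at day 3, narrowly and with overlap for Lyz1, and below at day 5, in Reg3g, Fabp2, Mep1b and Cyp2c38 they lie below at day 3 and mostly above at day 5, and Ddx58 differs at day 5 alone.

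Amino acid stress genes, the targets of the factor ATF4 that supply serine, asparagine, cystine and one-carbon units, moved downwards or were not called in the interaction. Of 21 tested, 11 moved downwards and none upwards. At day 3, 6 were higher and 1, Atf5, lower (median 0.15), at day 5, 11 were lower (median -0.72), and 4 (Aldh1l2, Asns, Psat1 and Slc7a11) were called on both days with opposite signs. Aldh1l2, the mitochondrial 10-formyltetrahydrofolate dehydrogenase (chr10:83487450-83534140, minus strand), was at 0.756, 1.01 and 0.798 CPM in EtOH and 5.66, 6.77 and 5.78 CPM in 4-OHT organoids at day 3. By day 5 the levels were 1.57, 1.92 and 2.65 CPM in EtOH and 0.694, 0.42 and 0.634 CPM in 4-OHT organoids. A 7.06-fold increase became a 3.51-fold decrease (interaction -4.63 ± 0.55, adjusted p = 4.0e-07). Slc7a11, the cystine importer, went from 4.43, 6.43 and 7.34 CPM in EtOH and 28.2, 23.9 and 27.7 CPM in 4-OHT organoids to 13, 12.9 and 27.8 CPM and 8.76, 9.56 and 12.4 CPM. The day 5 EtOH group holds 1 library, replicate 3, far above the others, and the whole group lay above the 4-OHT group (interaction -2.94 ± 0.40, adjusted p = 2.2e-05).

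Asns, asparagine synthetase, was at 104, 101 and 98 CPM in EtOH and 162, 179 and 169 CPM in 4-OHT organoids at day 3, and at 117, 102 and 177 CPM and 61.9, 66.2 and 83.2 CPM at day 5. Its treatments swapped order without overlap (interaction -1.66 ± 0.24, adjusted p = 4.5e-05). Atf3, a stress-induced factor counted here among the AP-1 genes, went from a 2.29-fold increase to a 2.46-fold decrease (interaction -2.49 ± 0.25, adjusted p = 1.2e-08), and Hmox1, the heme oxygenase gene of the NRF2 list, from a 2.76-fold increase to a 1.84-fold decrease (interaction -2.35 ± 0.19, adjusted p = 1.5e-10). Both genes also rose in EtOH organoids between the days, by 1.25 and 1.62 on the log2 scale. Nupr1 was higher at day 3 (0.98 ± 0.08, adjusted p = 1.8e-10) and not called at day 5 (0.13 ± 0.08, adjusted p = 0.24). Atf4 itself was not called on either day (-0.11 and -0.38), nor was Ddit3 (-0.50 and -0.18).

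Promoters of 3 of these genes are shown because they hold the amino acid response letters TGATGNAA (in Slc7a11 and Atf3 also read as TTGCATCA, from the other strand), to which ATF4 with C/EBP partners is known to bind. In 6 of the 21 windows matched for 18 of the 21 genes they were found on either strand, against 3.45% of all windows. Capitals mark the matches. The window of Asns (chr6:7693225-7693459, minus strand) is printed to the end of its match, those of Slc7a11 (chr3:50443614-50443863, minus strand) and Atf3 (chr1:191183334-191183583, minus strand) in full:
Asns: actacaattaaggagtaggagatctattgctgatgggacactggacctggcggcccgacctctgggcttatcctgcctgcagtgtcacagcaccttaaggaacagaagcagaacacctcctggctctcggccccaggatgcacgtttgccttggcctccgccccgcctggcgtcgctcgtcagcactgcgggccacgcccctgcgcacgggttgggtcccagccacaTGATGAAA
Slc7a11: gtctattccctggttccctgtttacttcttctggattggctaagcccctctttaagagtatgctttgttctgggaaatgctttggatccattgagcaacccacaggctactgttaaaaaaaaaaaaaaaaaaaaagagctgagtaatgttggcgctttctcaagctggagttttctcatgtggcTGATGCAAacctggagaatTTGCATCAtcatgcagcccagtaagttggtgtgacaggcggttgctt
Atf3: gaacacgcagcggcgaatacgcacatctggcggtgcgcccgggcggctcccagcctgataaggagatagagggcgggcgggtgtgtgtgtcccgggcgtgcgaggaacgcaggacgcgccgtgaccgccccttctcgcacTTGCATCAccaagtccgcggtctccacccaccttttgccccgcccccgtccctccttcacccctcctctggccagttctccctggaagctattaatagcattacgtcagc
The matches begin 23 bases before the RefSeq start in Asns, 66 and 47 in Slc7a11 and 110 in Atf3, which is not on the ATF4 list. By the GENCODE annotation Asns (chr6:7675169-7693254, minus strand) and Atf3 (chr1:191170296-191218039, minus strand) have starts further upstream, and their matches lie inside these genes.

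Growth factor and immediate early genes were in part higher at day 3 and mostly not called at day 5. Of 21 immediate early and AP-1 genes, 10 moved downwards and none upwards, with 7 higher and 1 lower at day 3 and 1 (Fosb) higher and 4 lower at day 5. Of 20 EGF family and MAPK feedback genes, 8 moved downwards and 1, the receptor gene Erbb3, upwards (0.75 ± 0.15, adjusted p = 4.0e-04). Areg, the EGF receptor ligand amphiregulin (chr5:91139599-91148432, plus strand), was at 24.2, 30.4 and 27.6 CPM in EtOH and 121, 121 and 113 CPM in 4-OHT organoids at day 3. The day 5 values were 50.4, 45.1 and 59.6 CPM in EtOH and 25.8, 27.6 and 21 CPM in 4-OHT organoids. High at day 3 and low at day 5 in each of 3 libraries, it gave an interaction of -3.17 ± 0.25, adjusted p = 3.2e-08. Fosl1, an AP-1 subunit, was 4.04-fold higher at day 3 and at -0.44 ± 0.20, adjusted p = 0.076 at day 5 (interaction -2.46 ± 0.27, adjusted p = 4.0e-08). Dusp1, a MAPK phosphatase, and Etv4, an ETS factor downstream of MAPK, had interactions of -1.71 ± 0.22, adjusted p = 1.7e-06 and -1.06 ± 0.13, adjusted p = 5.6e-07. Egr1 was the exception of its list at day 3, lower on both days (-1.30 and -2.40, both called).

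Of 15 tested regenerative, YAP target and fetal-like genes, 7 moved downwards and 3 (Anxa8, Clu and Msln) upwards. At day 3, 8 were higher and 1, Clu, lower (median 0.99), and at day 5, 6 were higher and 2, Areg and Sprr1a, lower (median 0.34). Sprr1a, a cornified envelope precursor induced in injured epithelium, was at 30.9, 46.2 and 37.5 CPM in EtOH and 296, 283 and 212 CPM in 4-OHT organoids at day 3, and at 81.2, 78.3 and 114 CPM and 38.7, 46.9 and 39.8 CPM at day 5. It swapped order without overlap (interaction -3.91 ± 0.40, adjusted p = 1.3e-06). Ctgf, a matricellular YAP target, stands in the list under its newer symbol Ccn2 and was therefore not counted among the 15 tested genes. It was higher on both days and less so at day 5, from 4.07 ± 0.43, adjusted p = 1.1e-08 to 1.47 ± 0.41, adjusted p = 0.0059, at levels of at most 4.72 CPM. Its interaction was -2.61 ± 0.66, adjusted p = 0.0025. Msln, mesothelin, went the other way. It was at 2.0, 3.4 and 2.39 CPM in EtOH and 2.39, 1.67 and 0.956 CPM in 4-OHT organoids at day 3 and at 3.25, 1.11 and 4.95 CPM and 30.7, 39.9 and 47.6 CPM at day 5, an interaction of 4.29 ± 0.65, adjusted p = 6.3e-05. At days 7 and 10 its log2 fold changes were -1.54 ± 0.35, adjusted p = 0.0016 and -0.77 ± 0.26, adjusted p = 0.026. Clu, clusterin, turned from -1.21 ± 0.26, adjusted p = 0.0016 to 0.96 ± 0.26, adjusted p = 0.0069 and was lower again at day 7 (-2.14). Psca, a GPI-anchored surface protein, was higher on both days and by far more at day 5 (1.63 and 5.94). Among genes on no list, Lgals1, galectin-1, was at 2.75, 1.97 and 1.17 CPM in EtOH and 9.76, 8.92 and 8.79 CPM in 4-OHT organoids at day 3 and at 3.09, 3.19 and 2.4 CPM and 2.03, 2.68 and 1.95 CPM at day 5. It was higher without overlap at day 3, and the groups overlapped at day 5 (interaction -2.60 ± 0.32, adjusted p = 2.6e-07). Stc1, the secreted glycoprotein stanniocalcin, was a scarcer case of the same order, with 0.285 ± 0.239 and 2.79 ± 0.477 CPM at day 3 and 0.906 ± 0.508 and 0.669 ± 0.286 CPM at day 5 (± SD, n = 3; interaction -3.71 ± 0.64, adjusted p = 4.5e-05).

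Absorptive genes moved in the opposite direction, many being lower at day 3 and some higher at day 5. Of 26 tested enterocyte genes, 15 moved upwards and 1, the adenosine deaminase gene Ada, downwards. At day 3, 15 were lower and 1, the nucleoside transporter gene Slc28a2, higher (median -0.87), and at day 5, 7 were higher and 5 lower (median 0.10). Fabp2, the intestinal fatty acid binding protein (chr3:122895072-122899506, plus strand), was at 82.8, 79.8 and 84.7 CPM in EtOH and 43.5, 48.6 and 43 CPM in 4-OHT organoids at day 3. The day 5 levels were 111, 141 and 130.5 CPM and 185, 195 and 195 CPM. Levels rose in both arms and the order of the treatments turned over (interaction 1.46 ± 0.12, adjusted p = 6.3e-10). At day 5 Fabp2 was 1.5003-fold higher, only just past the 1.5-fold threshold. No other gene of the list was called on both days with opposite signs. Anpep, aminopeptidase N, was under the fold threshold at day 3 (-0.32 ± 0.08, adjusted p = 0.0028) and higher at day 5 (0.79 ± 0.08, adjusted p = 2.6e-08). The meprin subunit Mep1b was lower at day 3 (-0.81 ± 0.08, adjusted p = 1.4e-09) and at 0.56 ± 0.07, adjusted p = 1.2e-06 at day 5, just under the fold threshold, whereas Mep1a was not called at day 3 (0.20) and higher at day 5 (1.58). The sugar transporter genes Slc2a2 (-2.54 and -2.53) and Slc2a5 (-1.84 and -1.48) were lower on both days, and Fabp1, Lct and Ada were lower at day 5 as well.

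Cytochrome P450 genes, which oxidise drugs, steroids and fatty acids and are enterocyte genes in the gut, behaved alike. Of 18 tested, 15 moved upwards and none downwards, 12 were lower at day 3 (median -1.20), and 4 were higher and 1 lower at day 5 (median 0.14). Cyp2c38, a P450 gene outside the tested list (chr19:39389556-39463075, minus strand), was at 7.07, 6.0 and 8.14 CPM in EtOH and 0.683, 0.525 and 1.05 CPM in 4-OHT organoids at day 3, and at 8.07, 9.92 and 6.77 CPM and 16.4, 15.1 and 15.7 CPM at day 5. From day 3 to day 5 its level rose by 4.37 on the log2 scale in 4-OHT organoids and was not called in EtOH organoids (0.22; interaction 4.15 ± 0.33, adjusted p = 4.2e-10). Cyp2d34, on the list, was at 13.6, 12.7 and 13.7 CPM in EtOH and 5.56, 5.29 and 3.68 CPM in 4-OHT organoids at day 3, and at 13.4, 16.8 and 5.49 CPM and 48.3, 40.7 and 33.7 CPM at day 5. Replicate 3 of the day 5 EtOH group was the lowest of its group, and the treatments did not overlap (interaction 3.24 ± 0.60, adjusted p = 4.6e-04). Cyp2c23, also outside the list, had an interaction of 3.5 ± 0.29, adjusted p = 3.7e-10, and on the list Cyp2c68 had one of 2.29 ± 0.11, adjusted p = 4.5e-15 and Cyp2j6 of 1.44 ± 0.14, adjusted p = 3.9e-08. Cyp2j6 was lower at day 3 (-1.32) and not called at day 5 (0.12). Cyp2c29 was the gene of the list that was lower at day 5. Cyp2c genes are close paralogs, and their reads may be split between copies.

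Promoters of 2 Cyp2c genes of the list are shown because 3 of the 20 windows matched for 16 of the 18 P450 genes held CAAAGTCCA, letters bound by the enterocyte factor HNF4, on either strand, against 0.384% of all windows. The matches, in capitals, begin 116 bases before the start in Cyp2c65 (chr19:39060756-39061005, plus strand) and 77 bases before it in Cyp2c68 (chr19:39741102-39741351, minus strand):
Cyp2c65: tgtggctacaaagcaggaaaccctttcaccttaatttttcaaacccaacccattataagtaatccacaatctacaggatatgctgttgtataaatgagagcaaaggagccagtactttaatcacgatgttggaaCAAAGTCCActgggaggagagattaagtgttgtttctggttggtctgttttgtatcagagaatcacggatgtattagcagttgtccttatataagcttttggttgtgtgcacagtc
Cyp2c68: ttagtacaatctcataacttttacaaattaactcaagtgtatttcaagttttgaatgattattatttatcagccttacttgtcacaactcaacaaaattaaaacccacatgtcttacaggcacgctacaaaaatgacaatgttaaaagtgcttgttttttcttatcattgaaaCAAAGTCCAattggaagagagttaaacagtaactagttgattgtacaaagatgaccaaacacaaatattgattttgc
Cyp2c65 had an interaction of 0.82 ± 0.10, adjusted p = 1.5e-07. Among 21 matched enterocyte genes, 2 of 22 windows held the letters.

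Reg3b, Reg3g and Reg1, of the Reg family of secreted C-type lectins, were among the largest upward moves. Such lectins are made by enterocytes and Paneth cells, and some act on bacteria. Reg3b (chr6:78370657-78373466, plus strand) was at 16.9, 14.1 and 14.1 CPM in EtOH and 0.879, 1.86 and 0.191 CPM in 4-OHT organoids at day 3. By day 5, Reg3b was at 6.93, 3.8 and 6.18 CPM and 12.9, 11.6 and 7.87 CPM. The 4-OHT group was nearly without these transcripts at day 3 and above EtOH at day 5 (interaction 4.87 ± 0.53, adjusted p = 1.7e-06). Reg3g fell from 183 ± 22.3 to 28.3 ± 3.09 CPM with 4-OHT at day 3, and was at 71.7 ± 15.3 CPM in EtOH and 108 ± 31 CPM in 4-OHT organoids at day 5, where the groups overlapped (± SD, n = 3; interaction 3.28 ± 0.35, adjusted p = 2.1e-06). In EtOH organoids, Reg3b, Reg3g and Reg1 fell between the days by 1.42, 1.35 and 1.44 on the log2 scale, so that both arms contributed. Ccl25, the chemokine of small intestinal epithelium, and Il18, an epithelial cytokine, were lower at day 3 (-1.24 and -1.61) and not called at day 5 (-0.21 and -0.0012). On the same list of 19 tested chemokines and innate effectors, 8 moved upwards and 4 downwards, the latter Cxcl16, Reg4 and the pair Duox2 and Duoxa2, the epithelial NADPH oxidase and its maturation factor (-2.18 and -2.22).

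No interferon-stimulated gene was called with opposite signs on both days. Of 23 tested, 12 were higher and none lower at day 3 (median 0.94), and 17 were higher and none lower at day 5 (median 1.27), and 10 moved upwards and 1, Bst2, downwards. Between the days, 7 of the list fell and none rose in EtOH organoids (median -0.48). In 4-OHT organoids 4 rose and 4 fell (median 0.0067). Ddx58, the RNA sensor RIG-I, was at 24, 19.4 and 22.7 CPM in EtOH and 19.9, 22.9 and 21.6 CPM in 4-OHT organoids at day 3, and at 17.7, 19.2 and 18.6 CPM and 37.7, 35.3 and 28.3 CPM at day 5. The treatments overlapped at day 3 and not at day 5 (interaction 0.90 ± 0.15, adjusted p = 1.8e-05). Irf9, a subunit of the interferon-activated complex ISGF3, had an interaction of 0.75 ± 0.15, adjusted p = 2.4e-04, with a fall from 18.3 ± 2.02 to 11.6 ± 1.15 CPM in EtOH organoids, while in 4-OHT organoids it was at 23.8 ± 1.6 and 25.2 ± 3.18 CPM (± SD, n = 3). Irgm1, an interferon-induced GTPase, was at -0.55 ± 0.09, adjusted p = 1.7e-05 at day 3 and 0.47 ± 0.09, adjusted p = 1.3e-04 at day 5, neither past the fold threshold.

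Mitochondrially encoded genes moved upwards in the interaction through a fall in the EtOH arm. These 13 genes encode subunits of the respiratory chain and ATP synthase. Of them, 12 moved upwards, none was called at day 3, and 12 were higher at day 5. mt-Atp6 was at 30.9, 30.9 and 32.9 CPM in EtOH and 25.9, 29.2 and 24.4 CPM in 4-OHT organoids at day 3, and at 4.71, 4.1 and 4.76 CPM and 35.7, 32.4 and 28.7 CPM at day 5. Among the 12 libraries of both days, the 3 day 5 EtOH libraries were the lowest (interaction 3.09 ± 0.20, adjusted p = 1.5e-12). In the later libraries it was low in both arms, at 4.49, 5.99 and 4.42 CPM in EtOH and 6.09, 8.24 and 4.72 CPM in 4-OHT organoids at day 7 and at 0.194, 0.253 and 0.304 CPM and 0.373, 0.738 and 0.877 CPM at day 10. Over the list the median change from day 3 to day 5 was -1.02 in EtOH and 0.20 in 4-OHT organoids. mt-Atp6, mt-Atp8 and mt-Nd4l overlap neighbouring genes on the mitochondrial genome and can share reads with them. The interaction of mt-Atp6 lay well above the list median of 1.24. The plot of mitochondrial and non-coding shares shows the same 3 libraries below the other 9 of days 3 and 5, with the libraries of days 7 and 10 partly as low or lower.

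**Figure D4:**
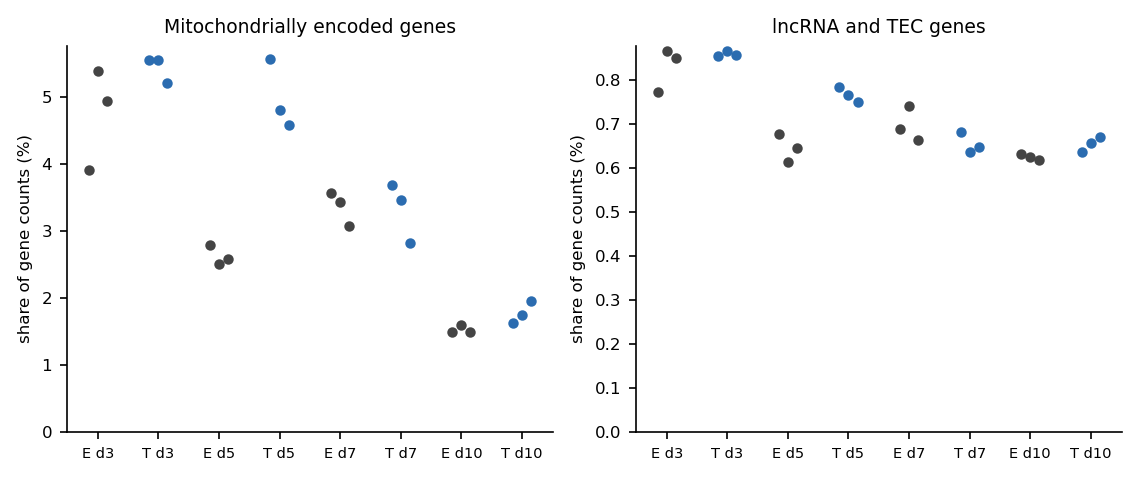
Share of gene counts, in percent, from mitochondrially encoded genes (left) and from lncRNA and TEC genes, the latter a class of unverified loci (right), in each of the 24 libraries of the time course (dark, EtOH, E; blue, 4-OHT, T). The 3 EtOH libraries of day 5 hold 2.51% to 2.80% mitochondrial counts and lie below both day 3 groups and the 4-OHT libraries of day 5, somewhat below the day 7 libraries (2.82% to 3.70%) and above all 6 day 10 libraries (1.5% to 1.96%). Their lncRNA and TEC share of 0.614% to 0.677% overlaps that of the day 7 and day 10 libraries (0.617% to 0.741%).

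Other secretory lineages gave fewer calls, to be read beside the 11.2% of all genes that moved upwards and the 9.01% that moved downwards. Of 18 goblet cell genes, 4 moved downwards (Atoh1, Ccl9, Fcgbp and Spink4) and 1, Zg16, upwards, with no gene higher on either day. Spink4 and Fcgbp, products of goblet cells, had interactions of -0.93 ± 0.22, adjusted p = 0.0034 and -0.96 ± 0.16, adjusted p = 6.7e-05, and Atoh1, the factor that specifies secretory cells, had one of -0.88 ± 0.10, adjusted p = 1.5e-07. Zg16, a goblet cell lectin, was lower at day 3 (-1.12) and under the fold threshold at day 5 (-0.50). Of 9 tested tuft cell genes, 6 were lower and 2 higher at day 5, and 2 moved downwards, Pou2f3, the tuft cell master regulator (-1.34 ± 0.32, adjusted p = 0.0015), and Ptgs1 (-1.73 ± 0.50, adjusted p = 0.0070). Plcg2, a phospholipase of tuft cell signalling, moved upwards (0.69 ± 0.26, adjusted p = 0.037). Of 9 enteroendocrine genes tested, Insm1, a factor of endocrine precursors, and Sct, secretin, moved downwards (-1.12 ± 0.31, adjusted p = 0.0051 for Insm1 and -0.86 ± 0.33, adjusted p = 0.042 for Sct), and Rfx6, a factor of endocrine cells, upwards (1.23 ± 0.49, adjusted p = 0.046). The calls of Zg16, Sct, Rfx6 and Plcg2 were each lost when any of several single libraries was left out.

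Circadian clock genes, lipid synthesis and cell stress lists gave smaller counts. Beside them, 11.2% of all genes moved upwards and 9.01% downwards. Of 16 clock genes, 6 moved upwards, among them Dbp, an output factor (1.31 ± 0.17, adjusted p = 8.2e-07), and Per2 and Per3 (1.00 and 1.00), and 1, Nfil3, downwards. Between the days, 2 clock genes fell and none rose in EtOH organoids, and 3 rose and none fell in 4-OHT organoids. Of 14 fatty acid synthesis genes, 6 moved downwards, with 7 higher at day 3. Scd1, the stearoyl-CoA desaturase, was 2.41-fold higher at day 3 and 1.44-fold higher at day 5, the latter under the threshold. Of 24 p53 targets, 6 moved downwards and 1, the death receptor gene Fas, upwards. The kinase gene Plk2 was 3.11-fold higher at day 3 and at 0.24 ± 0.14, adjusted p = 0.21 at day 5. None of 25 cytosolic ribosomal protein genes was called in the interaction, nor any of the 12 epithelial markers, and of 20 endoplasmic reticulum folding genes 1 was, Herpud1 (0.62 ± 0.09, adjusted p = 2.4e-06), which fell just under the fold threshold without replicate 1 of the day 3 EtOH group, replicate 2 of the day 5 EtOH group or replicate 2 of the day 5 4-OHT group.

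Signalling and metabolic lists completed the survey. Among all genes 11.2% moved upwards and 9.01% downwards, and counts near these shares are not read as results about a list. Of 16 genes of secretory specification and Notch signalling, 5 moved downwards (Atoh1, Dll4, Lfng, Notch2 and Sox4) and 1, the ligand gene Dll1, upwards. Notch2, a receptor of crypt cells, was higher at day 3 (0.84) and at -0.43 at day 5. Of 14 BMP and TGF-beta response genes, 5 moved downwards, Atoh8, Bmp7, Id3, Tgfb1 and Tgfbr2, and none upwards. Tgfb1, the ligand, was called on both days with opposite signs (0.73 and -0.70). Of 20 NRF2 targets and detoxification genes, 4 moved downwards (Hmox1, Me1, Slc7a11 and Txnrd1) and 3 upwards, the glutathione transferase genes Gsta1, Gsta4 and Gsto1, and Gsta1 was at 84.8 ± 9.19 CPM in EtOH and 35.8 ± 1.4 CPM in 4-OHT organoids at day 3 and at 152 ± 15.3 and 146 ± 5.01 CPM at day 5 (± SD, n = 3). Of 21 fatty acid oxidation and PPAR target genes, 4 moved upwards, Acaa2, Acadm, Eci1 and the receptor gene Ppara, and 7 were lower at day 3. Of 25 hypoxia and glycolysis genes, 5 moved downwards (Adm, Hk1, Pgk1, Pkm and Slc16a3) and 2 upwards (Gapdh and Pfkfb4). Of 13 MHC and antigen presentation genes, 3 moved upwards, H2-T3, Psmb10 and Tap2. The calls of Sox4, Pgk1, Psmb10 and Tap2 were lost when 1 or more single libraries were left out, that of Pgk1 without replicate 3 of the day 5 EtOH group.

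Genes of the interaction were called more often in its direction than against it in the later libraries, which do not enter its contrast. The responses at day 7 and day 10 rest on 6 further libraries each, with EtOH controls of their own, although all 24 libraries shared the filter and the estimate of the spread. Of the 1392 genes that moved downwards, 601 (43.2%) were lower and 73 higher at day 7, and 499 (35.8%) were lower and 29 higher at day 10. Among all genes, 9.25% were lower and 9% higher at day 7 (18.3% called), and 6.92% lower and 8.86% higher at day 10 (15.8% called). Of the 1728 genes that moved upwards, 446 (25.8%) were higher and 60 lower at day 7, and 554 (32.1%) were higher and 23 lower at day 10. The 70 genes that went from higher to lower were mostly still lower, 47 at day 7 and 50 at day 10, with 1 and 0 higher. Of the 105 that went from lower to higher, 51 were higher at day 7 and 58 at day 10, and 2 and 3 lower. By group, the day 7 and day 10 medians were -0.73 and -0.80 for Wnt targets, -1.29 and -1.59 for Paneth genes, -0.58 and -0.95 for ATF4 genes, 0.39 and 0.43 for enterocyte genes and 0.20 and 0.33 for mitochondrial genes. In single genes, Aldh1l2 was at -2.17 and -3.78, Axin2 at -1.39 and -1.14, Cyp2d34 at 1.99 and 2.52, and Areg, not called at day 7, at -0.30 and -0.67.

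**Figure D5:**
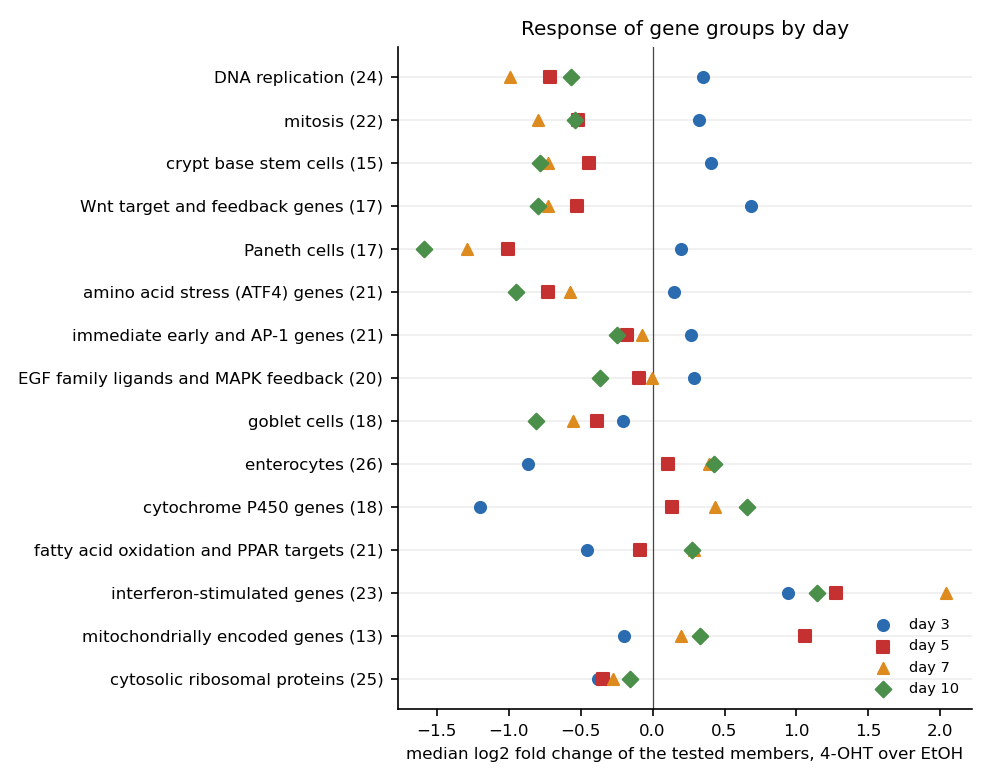
Median log2 fold change of 4-OHT over EtOH of the tested members of 15 gene groups (number in brackets) at day 3 (blue circles), day 5 (red squares), day 7 (orange triangles) and day 10 (green diamonds). In the proliferation, stem, Wnt, Paneth and ATF4 groups day 3 lies on the positive side and the 3 later days on the negative side, and enterocyte and P450 genes show the mirror image, while mitochondrial genes are displaced at day 5 and interferon genes lie on the positive side on all 4 days.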

How the data were processed

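Raw gene counts were used as deposited by the authors, who aligned 100 bp paired-end poly-A reads and counted them per gene. The submitters' processing notes name STAR 2.5.2, featureCounts, Subread 1.6.3 and the build mm10. Of 54752 genes, 24822 had 0 counts in all 24 time course libraries and 15447 passed edgeR's filterByExpr. Counts were scaled with TMM factors and fitted as 8 group means over the 24 libraries (16 residual degrees of freedom) with edgeR 4.0.16 in R 4.3.3, using robust quasi-likelihood F tests with Benjamini-Hochberg adjustment. Genes were called at adjusted p under 0.05 and a fold over 1.5, and the code was tested on simulated data. SEs are the absolute log2 fold change divided by the square root of F.

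All 24 columns carry 1 line number, and nothing says that replicates came from separate cultures, so that p-values measure the spread between these libraries, which may be technical. Positions come from GENCODE vM21 on GRCm38 for 126 of 136 named genes, matched by versioned identifier, and promoters from RefSeq on GRCm38.p6.

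The genes, the 34 lists and the comparison itself were chosen with earlier results of these data known. The naming rule took the 10 largest interactions in each direction among called genes with a group mean of at least 50 counts, predicted genes left out, the 10 reversals in each direction with the largest value of the smaller of their 2 absolute log2 fold changes (day 3 and day 5), up to 4 called members of each list with the smallest p-value, the Mediator kinase module and members of counts of 5 or fewer. Some list and module genes that it took are not described. Genes named beyond this rule (Fzd7, Sfrp5, Atf4, Ddit3, Egr1, Slc2a2, Slc2a5, Duox2, Duoxa2, Defa22 and Cyp2c65 among them) were chosen after their values were seen. Alternatives were limma-voom (limma 3.58.1), DESeq2 1.42.0, other filters and scaling, fewer libraries, a replicate block and each library left out in turn. The other tables of the series were not used here. The result of 1 list is not reported here.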

Additional observations from a re-analysis of the deposited data

Results flagged for a closer look

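The response to 4-OHT differed between day 5 and day 3 by the interaction test in 3120 genes, of which 175 were called on both days with opposite signs. Of these 175, those named were the 10 in each direction whose smaller absolute log2 fold change of the 2 days was largest, which is not the order of their interactions. From lower to higher, the log2 interactions were 4.87 for Reg3b, 4.31 for Reg1, 4.15 for Cyp2c38, 3.24 for Cyp2d34, 2.35 for Abca8b, 2.31 for Spink1, 2.17 for Clu, 2.13 for Mro, 1.97 for Mroh6 and 1.96 for Plbd1. In the other direction the log2 interactions were -4.63 for Aldh1l2, -4.62 for Alb, -3.91 for Sprr1a, -3.17 for Areg, -2.64 for Clca4a, -2.50 for Insyn1, -2.49 for Atf3, -2.24 for Rgcc, -2.22 for Ascl2 and -2.19 for C1qtnf1. Groups of 3 libraries are too small for an outlier test.

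Several of these genes were scarce, among them Alb, with 3 to 4 counts in the day 3 EtOH libraries and 2 to 19 in the day 5 4-OHT libraries. Clca4a had at least 47 counts in every library of days 3 and 5. Alb, albumin, a liver protein gene, was at 0.216, 0.159 and 0.16 CPM in EtOH and 0.732, 0.811 and 0.812 CPM in 4-OHT organoids at day 3 and at 2.98, 2.33 and 4.17 CPM and 0.107, 0.998 and 0.528 CPM at day 5. Clca4a, a calcium-activated chloride channel regulator gene, was at 2.54, 3.4 and 4.74 CPM and 11.4, 10.9 and 9.99 CPM at day 3 and at 5.79, 7.49 and 8.88 CPM and 3.79, 3.89 and 3.06 CPM at day 5. Both pairs of groups swapped order between the days. Rgcc, a regulator of cell cycle gene, went from 11.1 ± 1.08 and 21.8 ± 2.25 CPM in EtOH and 4-OHT organoids at day 3 to 12 ± 4.84 and 5.02 ± 1.3 CPM at day 5 (± SD, n = 3). Abca8b, an ABC transporter gene, went from 3.23 ± 0.872 and 1.67 ± 0.348 CPM to 1.99 ± 0.72 and 5.31 ± 0.639 CPM (± SD, n = 3).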

How the results depend on the processing

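The count of 3120 genes in the interaction was 2567 to 3180 under other filters, scaling, tests, gene classes and a fit of 12 libraries, including 3080 with DESeq2 and 3135 with limma-voom, and the median of all genes moved by less than 0.03. With at least 10 counts in every library the response at day 5 fell to 1303 genes and the EtOH change to 1187, and among nuclear protein-coding genes, an alternative chosen after seeing the data, the interaction held 2567 and the EtOH change 1134. Both alternatives test fewer genes.

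Leaving out 1 library at a time gave 2723 to 3283 genes in the interaction (1469 to 1742 upwards and 1254 to 1598 downwards), 117 to 190 reversals, 1680 to 1950 at day 3, 1701 to 2138 at day 5, 1390 to 2016 in the EtOH change, 3244 to 3500 in the 4-OHT change, 2494 to 3085 at day 7 and 2261 to 2533 at day 10. The lowest counts of the interaction, the reversals and day 5 were those without replicate 3 of the day 5 EtOH group. None of the 136 genes followed through the alternatives changed the sign of its interaction. Other genes named in the text, such as Fzd7 and Atf4, were not followed. Sct (adjusted p of 0.0594 with limma-voom and 0.0548 in the fit of 12 libraries), Psmb10 (0.58 in the fit of 12 libraries) and Sox4 (-0.58 among nuclear protein-coding genes) lost their calls, and Herpud1, Pgk1, Plcg2, Psmb10, Rfx6, Sct, Sox4, Tap2 and Zg16 did so without some single libraries (47 such results, against 1585 that kept their side of the threshold).

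With the replicate number of the sample titles as a block, 3151 genes were called in the interaction, 3091 of them among the 3120, with 180 reversals. Same-numbered libraries of days 3 and 5 had correlations of -0.059 to 0.117, so that the numbers do not pair the samples.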
